A study of Homo sapiens with 12 samples.

Results

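Decorin, the product of the DCN gene, was followed through 12 oligonucleotide arrays. The gene was represented by every probe set whose only annotated symbol is DCN, which gave 7 probe sets of 41097 with 1 gene symbol (54675 probe sets in all). The arrays held RNA of MCF10A cells, a human mammary epithelial line usually described as non-tumorigenic; its labels name breast cancer as the origin. Knockdown cells (4GKD), in which a doxycycline-inducible shRNA silenced the translation initiation factor eIF4G1, were set against WT cells. Cells of either genotype were irradiated with 10 Gy from a linear accelerator or mock-treated. From each of these 4 conditions a total RNA preparation (Total), a light polysome pool (LMW) and a heavy polysome pool (HMW) were hybridised, 1 array each. The labels give 1 to 3 ribosomes for LMW and 4 or more for HMW of WT mock cells and no ribosome numbers for the other pools. No condition was replicated, and nothing states a control hairpin or doxycycline for WT cells, so effects of the hairpin, of the drug and of lost eIF4G1 cannot be told apart. How long after irradiation the cells were collected is likewise unstated in the sources used here.

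Decorin is a small leucine-rich proteoglycan: a secreted protein core that carries a glycosaminoglycan chain, binds to collagen fibrils and regulates their assembly. It also binds transforming growth factor beta and several cell surface receptors, among them those for epidermal growth factor and hepatocyte growth factor. Fibroblasts and other stromal cells are its best known source, and in epithelial cultures it is usually scarce. Since decorin is secreted, its mRNA is translated by ribosomes at the endoplasmic reticulum. The gene lies on chromosome 12 beside its relatives LUM, KERA and EPYC, and the RefSeq table of GRCh38.p14 lists 6 transcripts for it. Which of them a probe set detects was not analysed here.

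DCN ran in opposite directions in Total and on polysomes. In total RNA it was 8.58-fold lower (mock) and 12.2-fold lower (10 Gy) in knockdown than in WT cells, whereas in the polysome pools it was 5.97-fold to 9.76-fold higher in knockdown cells. Put the other way, knockdown cells had more DCN signal on polysomes than in Total, and WT cells had far less on polysomes than in Total. All these differences compare 1 array with 1, and DCN was chosen for this pattern, so they are given as a description without a test. An intensity ranks a transcript among the others of its array and holds no information on the amount of polysome RNA per cell. In bulk samples fewer cells that express DCN and less DCN RNA per cell cannot be told apart.

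Probe set 201893_x_at had the highest mean level and is used below wherever a single value is given. Its intensity in Total was 132 in mock and 122 in irradiated knockdown cells, against 1134 in mock and 1487 in irradiated WT cells. In LMW it was 583 and 547 in mock and irradiated knockdown cells, against 61.4 and 56.0 in mock and irradiated WT cells. In HMW it was 625 and 706 in mock and irradiated knockdown cells, against 74.7 and 118 in mock and irradiated WT cells. The 6 low arrays were thus the Total arrays of knockdown cells and the polysome arrays of WT cells, and the 6 high arrays were the polysome arrays of knockdown cells and the Total arrays of WT cells.

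On the log2 scale the 12 levels formed a lower range, with levels of 5.81 to 7.05, and an upper range, with levels of 9.10 to 10.54. The gap between them, 2.05, was the widest between neighbours in the order. From the bottom, the order was LMW of WT, HMW of WT, Total of knockdown, LMW of knockdown, HMW of knockdown and Total of WT cells. Neighbouring levels within the lower range differed by at most 0.66 and within the upper range by at most 0.68. Without replicates there is no spread against which to set such steps. The closest neighbours were HMW of irradiated WT cells and Total of irradiated knockdown cells, which differed by 0.04.

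**Figure D1:**
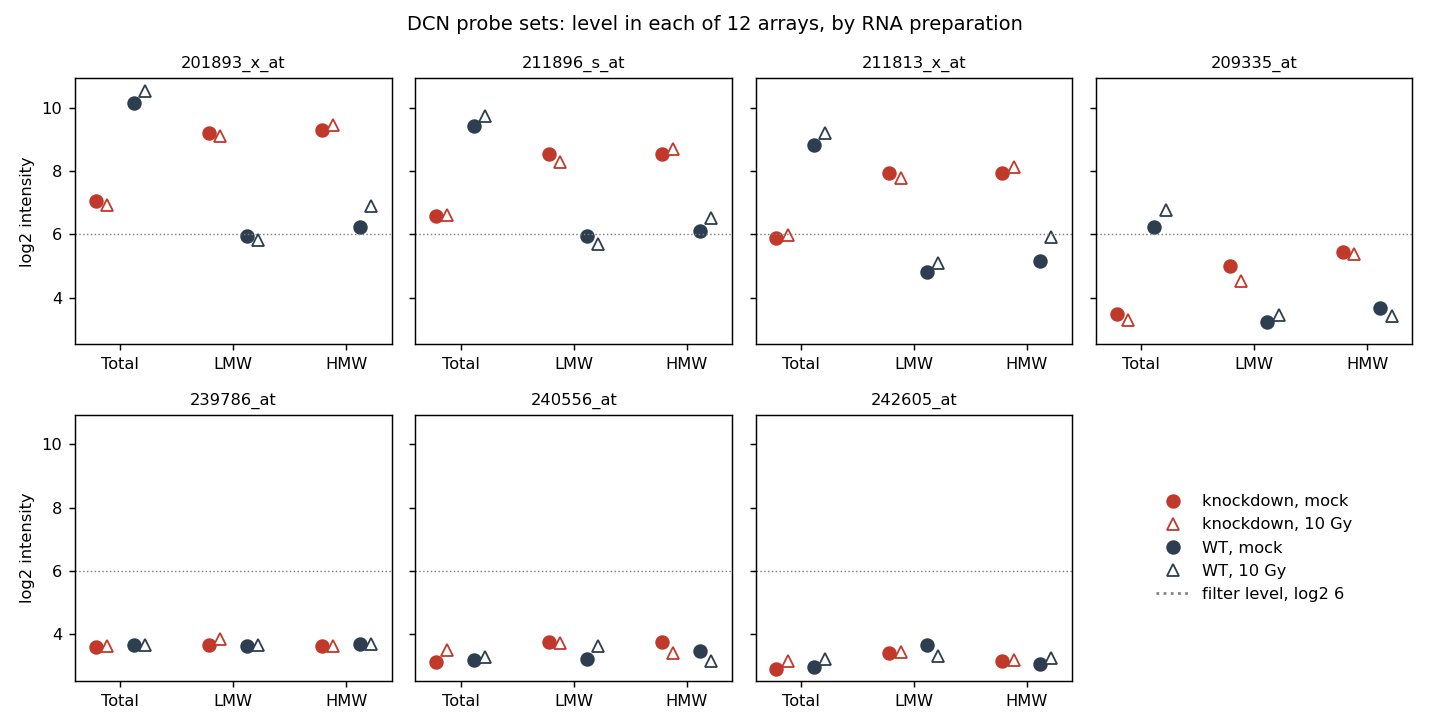
Level of each of the 7 DCN probe sets (log2 intensity, vertical axis) in the 12 arrays, grouped by RNA preparation, with knockdown cells left of WT cells, circles for mock and triangles for 10 Gy, and 1 point per array. In the 4 probe sets of the upper row the knockdown points lie below the WT points in Total and above them in LMW and HMW, while the 3 probe sets of the lower row stay between 2.92 and 3.85 in every array.

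The other probe sets were read one by one. The suffixes of their names follow the array maker's rules, by which _x_at marks probes that may also bind other transcripts and _s_at probes shared by several transcripts. Probe set 211896_s_at had intensities of 95.4 and 96.9 in Total of mock and irradiated knockdown cells, against 684 and 849.8 in Total of WT cells. Its polysome intensities were 313 to 411 in the 4 knockdown arrays and 52.3 to 90.8 in the 4 WT arrays. Both pool ranges and both Total ranges were therefore apart, in opposite directions.

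Probe set 211813_x_at gave 58.6 and 62.9 in Total of mock and irradiated knockdown cells, against 453 and 586 in Total of WT cells. On polysomes it gave 219 to 279 in knockdown arrays and 28.2 to 60.4 in WT arrays. Probe set 209335_at, which carries neither suffix, was dimmer. It gave 11.3 and 9.74 in Total of mock and irradiated knockdown cells, against 75.7 and 109.8 in Total of WT cells. On polysomes it gave 23.2 to 43.5 in knockdown arrays and 9.48 to 12.9 in WT arrays. This probe set thus had the same groups high and low as the brightest one.

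Over the 12 arrays, Pearson's r with 201893_x_at was 0.998 for 211896_s_at, 0.998 for 211813_x_at and 0.95 for 209335_at, as a description of signals from the same hybridisations. The remaining 3 probe sets, 239786_at, 240556_at and 242605_at, ran from 7.55 to 14.4 in intensity over all 12 arrays. No array reached the filter level used for genes, a log2 level of 6, in these 3, and their r with 201893_x_at lay between -0.17 and 0.19. Of the 7 probe sets, 3 reached that level in at least 4 arrays (10, 10 and 6 arrays), 209335_at reached it in 2 and the last 3 in none. Differences that include levels under it have no exact size. This holds for all differences of 209335_at and 211813_x_at between genotypes and between polysomes and Total, and for those of 201893_x_at and 211896_s_at that include LMW of WT cells.

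The silenced gene checks the labels. EIF4G1 intensity in Total was 163 and 176 in mock and irradiated knockdown cells, against 1028 and 864 in WT cells, and knockdown arrays were below their WT counterparts in each of 6 pairs. Genes were kept for tests where their brightest probe set had a log2 level of 6 or more in at least 4 arrays. In limma, a linear model with moderated variances fitted over these 10157 genes, with genotype and treatment as terms and calls at an adjusted p of 0.05 or less, EIF4G1 fell by 2.47 ± 0.12 (SE) in Total (adjusted p = 2.76e-06, 2 of 2 pairs) and by 2.84 ± 0.46 in polysomes (adjusted p = 6.47e-08, 4 of 4 pairs). The silenced gene was thus low in every knockdown array, while DCN was low in some and high in others. The polysome fits took the mean of LMW and HMW as 1 value per condition. Their 4 pairs count the light and the heavy pool of mock and of irradiated cells, and are not 4 independent comparisons. All these fits had 1 residual degree of freedom and borrowed their variance from all genes, completely so in the polysome fits. With 1 value per condition, that residual is how far the knockdown difference in irradiated cells departed from that in mock cells. Such a p-value reflects this scatter among these samples alone, which may be technical. In the polysome fits it reflects the scatter pooled over all genes, and a gene's own departure does not enter it. In none of the fits does a p-value measure a spread between replicates.

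The DCN difference, knockdown minus WT, was -3.10 in Total of mock cells, where 11.7% of the WT intensity was left. In Total of irradiated cells it was -3.61, with 8.19% left. The mean was -3.36 ± 0.36 (SD over the mock and the irradiated pair). In both pairs this was the lowest value of all 10157 genes kept for analysis. At least 2-fold lower were 3.89% of these genes in mock and 4.94% in irradiated cells, and DCN was chosen on this contrast.

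In the polysome pools the same difference was positive throughout. In LMW it was 3.25 in mock and 3.29 in irradiated cells (9.49-fold and 9.76-fold), against a background of 16.7% and 13.5% of genes at least 2-fold higher. In HMW it was 3.06 in mock and 2.58 in irradiated cells (8.36-fold and 5.97-fold), with 15.2% and 4.22% of genes at least 2-fold higher. Over the 4 pairs the mean was 3.04 ± 0.33 (SD). From the highest value, DCN stood at place 27 and 12 of 10157 in LMW of mock and irradiated cells, and at place 67 and 24 in HMW. Many genes were higher on knockdown polysomes, and DCN was near the top of the order but did not lead it.

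**Figure D2:**
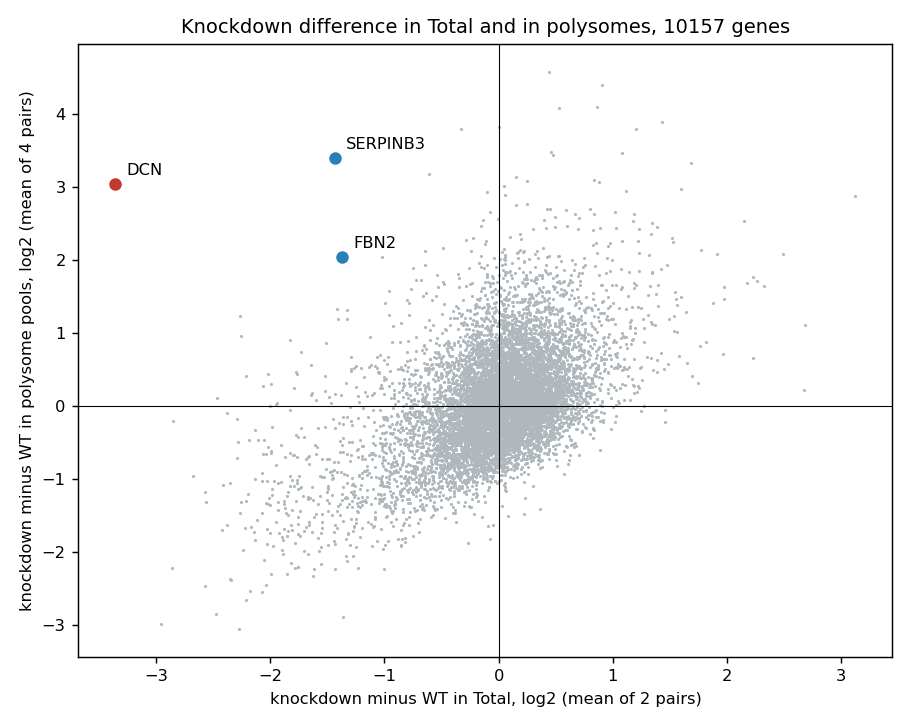
Knockdown minus WT in Total (horizontal axis, log2, mean of 2 pairs) and in the polysome pools (vertical axis, log2, mean of 4 pairs), 1 point per gene for 10157 genes. DCN lies at -3.36 and 3.04, at the upper left, and the labelled SERPINB3 and FBN2 are the other genes at least 2-fold lower in both Total pairs and at least 2-fold higher in all 4 polysome pairs.

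The combination was rare at this size. Of 10157 genes, 3 (0.0295%) were at least 2-fold lower in knockdown cells in both Total pairs and at least 2-fold higher in all 4 polysome pairs, and 0 (0.0%) went at least 2-fold the opposite way in all 6. These counts by fold come without a test. The 3 genes were DCN, SERPINB3 and FBN2, the last named because the count holds so few. FBN2 encodes fibrillin-2, a secreted microfibril protein, and SERPINB3 a protease inhibitor of squamous epithelium with a near-identical neighbour, SERPINB4, whose signal may be shared. FBN2 levels in Total were 9.72 and 10.07 in mock and irradiated knockdown cells, against 11.34 and 11.19 in WT cells. In HMW they were 10.74 and 10.67 in knockdown cells, against 8.42 and 8.85 in WT cells. Counting sign alone, 3.62% of genes were lower in Total and higher in all polysome pairs of knockdown cells, and 4.06% were the reverse.

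Within a condition, LMW minus Total of DCN was 2.14 and 2.17 in mock and irradiated knockdown cells, against -4.21 and -4.73 in WT cells. At least 2-fold higher in LMW than in Total were 10.2% and 11.1% of genes in mock and irradiated knockdown cells, and at least 2-fold lower 29.8% and 16.2% in WT cells. HMW minus Total was 2.24 and 2.54 in mock and irradiated knockdown cells, against -3.92 and -3.65 in WT cells. The shares for HMW were 3.92% and 5.13% higher in knockdown cells and 21.9% and 7.28% lower in WT cells. These use the same arrays as the knockdown differences above, so they restate the same levels along the other axis. The mean of both pools lay above Total by 2.19 in mock and 2.35 in irradiated knockdown cells (4.56-fold and 5.10-fold), where 4.56% and 5.96% of genes were at least 2-fold higher on polysomes (DCN being chosen on this contrast). In WT cells it was at -4.07 in mock and -4.19 in irradiated cells, that is at 5.97% and 5.47% of the Total level. At least 2-fold lower on polysomes were 26.0% of genes in mock and 9.06% in irradiated WT cells.

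In polysome minus Total, DCN stood at place 14 from the top in both mock and irradiated knockdown cells, and at place 31 and 10 from the bottom in mock and irradiated WT cells, of 10157 genes each time. The knockdown thus differed from WT in polysome minus Total by 6.25 in mock and 6.54 in irradiated cells (mean 6.40 ± 0.20, SD over both treatments), the highest value of all 10157 genes in both. The 3 other responding probe sets gave means of 5.44 (211896_s_at), 5.78 (211813_x_at) and 4.76 (209335_at) for the same quantity, sizes that rest in part on levels under 6. At least 2-fold higher in this quantity were 16% of genes in mock and 5.54% in irradiated cells.

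**Figure D3:**
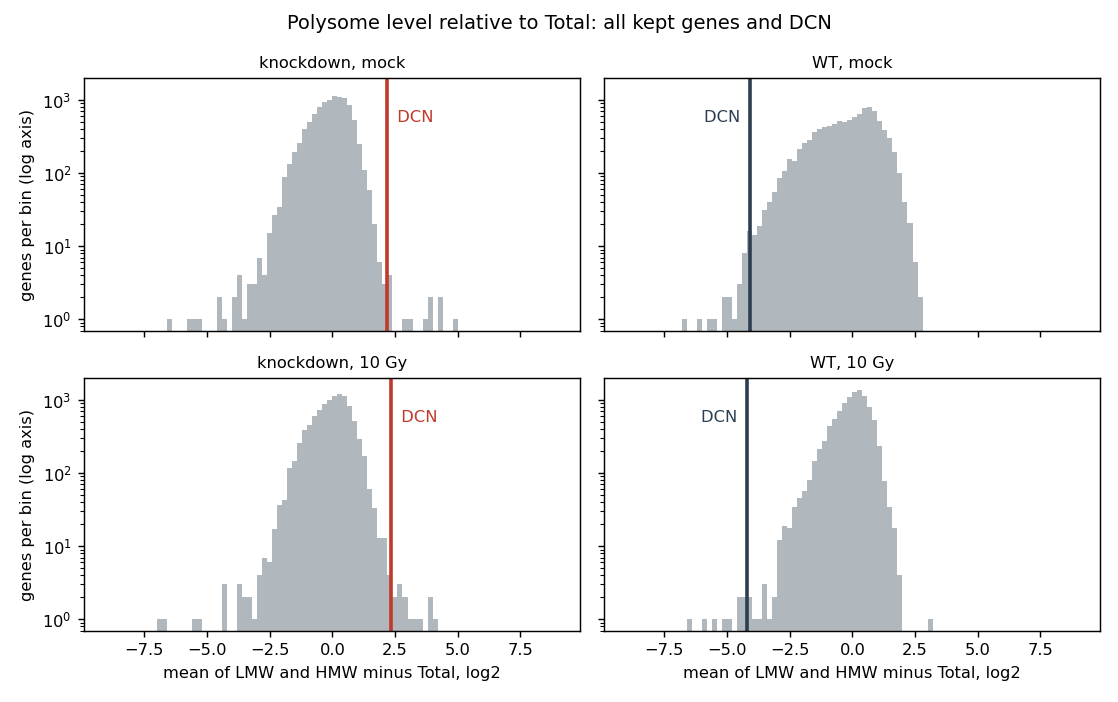
Mean of LMW and HMW minus Total (horizontal axis, log2) for 10157 genes in each condition, as counts of genes per bin on a log axis, knockdown cells left and WT cells right, with a line at DCN. DCN lies in the upper tail in knockdown cells (2.19 mock and 2.35 at 10 Gy) and in the lower tail in WT cells (-4.07 mock and -4.19 at 10 Gy).

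Probe set 201893_x_at was higher in HMW than in LMW in all 4 conditions. HMW minus LMW was 0.10 and 0.37 in mock and irradiated knockdown cells, against 0.28 and 1.08 in mock and irradiated WT cells. Of all genes, 9.08% and 9.5% in mock and irradiated knockdown cells and 10.4% and 16.4% in mock and irradiated WT cells were at least 2-fold higher in HMW, and of the 4 DCN values the one of irradiated WT cells was past that size. For the same pair 211896_s_at gave 0.80, 211813_x_at 0.81 and 209335_at -0.03. LMW of WT cells lay below the filter level of 6, where differences are compressed. Higher DCN in knockdown than in WT polysomes was thus measured in the light and in the heavy pool.

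Irradiation moved DCN much less than the knockdown did. In Total, 10 Gy minus mock was -0.12 in knockdown and 0.39 in WT cells. In LMW it was -0.09 in knockdown and -0.13 in WT cells, and in HMW 0.18 in knockdown and 0.66 in WT cells. Over the 3 preparations the mean was -0.01 ± 0.16 in knockdown and 0.31 ± 0.40 in WT cells (SD, 3 pairs each). The SD exceeds the mean in both genotypes. No pair of 201893_x_at reached 2-fold. That size in the direction of DCN was reached by 0.945% of genes in Total, 1.1% in LMW and 0.335% in HMW of knockdown cells, and by 0.0788% in Total, 4.14% in LMW and 15.8% in HMW of WT cells. The response in knockdown cells less that in WT cells came to -0.51 (Total), 0.04 (LMW) and -0.485 (HMW). For WT Total, the 4 responding probe sets gave 0.39, 0.31, 0.37 and 0.54, all above 0, whereas in HMW of WT cells 209335_at was at -0.28 and the others between 0.40 and 0.74.

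The level pattern of DCN was set beside that of the other genes by Pearson's r over the 12 log2 levels, used only to choose genes and given without a test. All 12 values share their arrays, and those of DCN fall into separated ranges, so r largely records that split. The 8 genes most like DCN were GBP2 (0.94), HTRA1 (0.91), C1R (0.90), SERPINA3 (0.90), CFB (0.88), SERPINB3 (0.86), CKAP4 (0.86) and NFE2L1 (0.86). GBP2, SERPINA3 and CFB reached the filter level of 6 in 6, 6 and 5 arrays. All of these were WT Total or knockdown polysome arrays, where DCN was high too. Their likeness is thus fixed in part by the filter and rests on levels under 6 elsewhere. GBP2 is an interferon-induced GTPase, HTRA1 a secreted serine protease, C1R a protease of the classical complement pathway, SERPINA3 a secreted protease inhibitor and CFB complement factor B. CKAP4 is a membrane protein of the endoplasmic reticulum and NFE2L1 a transcription factor that is made there. The least alike were WDR41 (-0.90), FAM118B (-0.84), ODC1 (-0.82), which makes polyamines, and TEF (-0.82), a transcription factor.

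Their swings were smaller than that of DCN, with 1 exception. Over the 12 arrays DCN spanned 4.73, SERPINB3 5.48, CFB 2.70 and C1R 2.43 on the log2 scale, and HTRA1 no more than 1.15. C1R in Total was at 6.84 and 6.53 in mock and irradiated knockdown cells, against 8.05 and 8.34 in WT cells. In HMW it was at 6.91 and 7.78 in knockdown cells, against 6.35 and 6.72 in WT cells. Its polysome levels were thus higher in knockdown cells, but by less than its Total levels were lower. SERPINB3 in Total was at 7.49 and 7.07 in mock and irradiated knockdown cells, against 9.08 and 8.35 in WT cells. In HMW it was at 9.30 and 10.24 in knockdown cells, against 6.0 and 7.38 in WT cells.

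**Figure D4:**
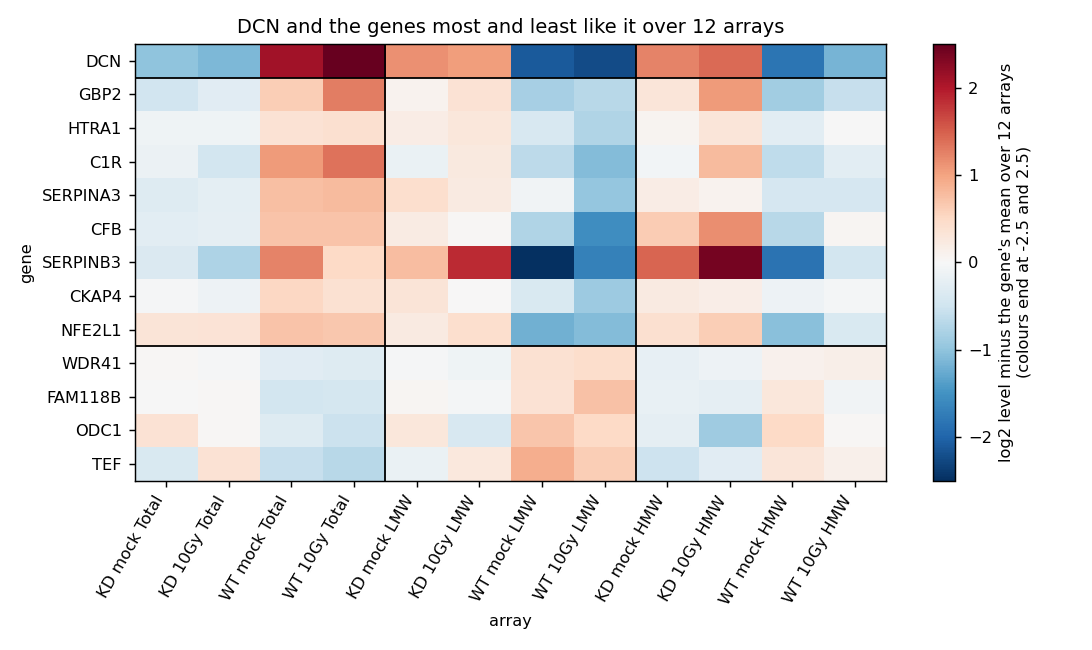
Log2 level minus each gene's mean over 12 arrays (colour) for DCN, the 8 genes most like it and the 4 least like it (rows), with arrays in columns grouped by Total, LMW and HMW and knockdown left of WT. DCN spans 4.73 and SERPINB3 5.48, while HTRA1 spans 1.15 and WDR41 0.76.

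Relatives of decorin did not share its range. Of 16 other small leucine-rich proteoglycans, all with a probe set, 3 were kept and 13 were not. The chromosomal neighbours stayed dim in every array, LUM between 3.33 and 3.89, KERA between 2.60 and 2.88 and EPYC between 2.68 and 3.29, and so did biglycan (BGN, the closest relative of decorin) between 4.64 and 5.74. Among the 3 kept, TSKU, a secreted inhibitor of several signalling pathways, rose by 0.37 in Total of knockdown cells (adjusted p = 0.0379 in limma, 2 of 2 pairs) but no longer passed without a filter. PODNL1, a podocan-like matrix protein, rose by 0.49 (adjusted p = 0.0354, 2 of 2 pairs), at levels between 5.85 and 6.48. NYX, nyctalopin of the retina, was at 0.02 (adjusted p = 0.942). None of the 3 passed in polysomes or in polysome minus Total, where limma called 9.74% and 5.15% of all genes, and the list's medians were 0.07 and -0.08 against 0.00 and -0.02 over all genes. In Total, limma called 40.3% of genes, 20.6% upwards and 19.7% downwards.

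The proteins that bind decorin gave a different picture. Of 10 receptors, 6 were kept, and 4 of them passed upwards in knockdown polysomes and 0 downwards, where 6.21% of all genes passed upwards and 3.52% downwards. In limma ITGA2, the collagen-binding integrin subunit, rose by 2.55 ± 0.44 (SE, adjusted p = 6.62e-07) and its partner ITGB1 by 1.58 ± 0.23 (adjusted p = 3.30e-09). MET, the hepatocyte growth factor receptor, rose by 1.37 ± 0.38 (adjusted p = 0.00561 in limma). Each was higher in 4 of 4 pairs of pools, but mostly by less in irradiated cells. ITGA2 was at 3.25 (LMW) and 4.44 (HMW) in mock cells and at 1.07 and 1.42 in irradiated cells. For MET these were 2.06 and 2.04 against 0.75 and 0.62, and for ITGB1 1.63 and 2.30 against 1.72 and 0.66. In LMW of mock WT cells ITGA2 lay at 4.90, under the filter level of 6, so its size is not exact. EGFR, the epidermal growth factor receptor, rose by 1.70 ± 0.38 (adjusted p = 0.000318, 4 of 4 pairs), but the median of its probe sets was at -0.075. For MET that median was 0.40 and did not pass. In Total, MET fell by 0.37 (adjusted p = 0.00877, 2 of 2 pairs) and IGF1R rose by 0.33 (adjusted p = 0.0333, 2 of 2 pairs), calls that ended with the median of probe sets, while ITGA2 (-0.13), ITGB1 (-0.15) and EGFR (-0.11) did not pass. The receptors' median was 1.47 in polysomes and -0.12 in Total. ERBB4, KDR, TLR2 and TLR4 were not kept.

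Among 21 growth factors and matrix proteins that bind decorin, 10 were kept, and 4 passed upwards in knockdown polysomes and 0 downwards. In limma FN1, fibronectin, rose by 2.03 ± 0.30 (adjusted p = 3.61e-09) and TGFB2 by 2.23 ± 0.31 (adjusted p = 1.22e-10). COL12A1, a fibril-associated collagen, rose by 2.17 ± 0.46 (adjusted p = 0.000119 in limma). Each was higher in 4 of 4 pairs of pools. TGFB2 lay under the filter level of 6 in every polysome array except HMW of knockdown cells. COL12A1 lay under it in LMW of mock and irradiated WT cells (5.31 and 5.77). The polysome sizes for TGFB2 and COL12A1 are therefore not exact. COL1A1 rose by 1.36 ± 0.44 (adjusted p = 0.0246, 4 of 4 pairs), a call that ended with HMW alone, with quantile normalisation and with the median of probe sets. In Total, FN1 fell by 1.02 ± 0.08 (adjusted p = 1.53e-05), FBN1, fibrillin-1, by 1.29 ± 0.19 (adjusted p = 0.000555) and COL12A1 by 0.49 ± 0.12 (adjusted p = 0.00913), each in 2 of 2 pairs in limma. TGFB2 and COL1A1 rose there by 0.85 and 0.78, although by the median of its probe sets COL1A1 was at -0.20. With the median of probe sets COL12A1 passed neither in Total nor in polysomes. The list's median was 0.54 in polysomes and 0.10 in Total.

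FN1 came nearest to DCN in this list. Its log2 level in Total was 12.60 and 12.79 in mock and irradiated knockdown cells, against 13.64 and 13.79 in WT cells. In HMW it was 12.08 and 11.99 in knockdown cells, against 9.50 and 9.78 in WT cells. Unlike DCN, FN1 was lower in every polysome array than in the Total array of the same condition, in knockdown cells too. In polysome minus Total, 4 of the 6 receptors and 4 of the 10 growth factors and matrix proteins passed upwards and 0 downwards, where 4.76% of all genes passed upwards. With the median of probe sets EGFR (0.074) and MET (0.80) no longer passed, and with LMW alone TGFB2 (0.77) did not. Their medians were 1.73 and 0.52. FN1 (3.05 ± 0.32, adjusted p = 7.34e-18), ITGA2 (2.68 ± 0.46, adjusted p = 1.36e-06) and COL12A1 (2.65 ± 0.47, adjusted p = 3.97e-06) were highest in limma. Levels under the filter level enter the values of ITGA2 and COL12A1.

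**Figure D5:**
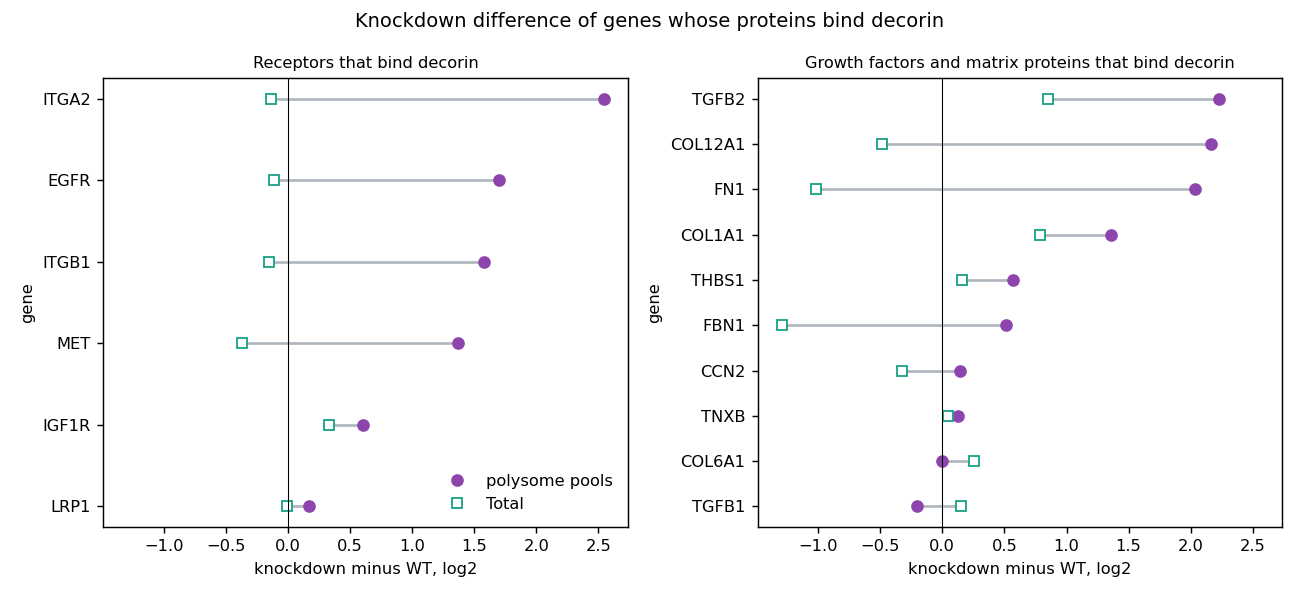
Knockdown minus WT (horizontal axis, log2) for the 6 kept receptors and the 10 kept growth factors and matrix proteins that bind decorin (rows), with filled circles for the mean of the polysome pools and open squares for Total. ITGA2 has 2.55 in polysomes and -0.13 in Total, and FN1 has 2.03 in polysomes and -1.02 in Total.

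The glycosaminoglycan chain of decorin is built by a series of transferases. Of 21 genes for chondroitin and dermatan sulfate synthesis, 16 were kept, and in Total 3 rose and 5 fell in knockdown cells, where 20.6% of all genes rose and 19.7% fell. CHST11, a chondroitin sulfotransferase, rose by 0.68 (adjusted p = 0.00157, 2 of 2 pairs) and B3GAT3, which finishes the linker to the core protein, by 0.57 (adjusted p = 0.0149, 2 of 2 pairs). CSGALNACT2, which starts the chain, fell by 0.64 (adjusted p = 0.00207, 2 of 2 pairs), and its relative CSGALNACT1 by 0.76 (adjusted p = 0.05, 2 of 2 pairs), a call that ended without the variance trend. In polysomes 0 of the 16 passed at an adjusted p of 0.05 in limma, where 9.74% of all genes did, and in polysome minus Total CSGALNACT1 alone did (1.06, adjusted p = 0.00803), again not without the trend. In every polysome array CSGALNACT1 lay below the filter level of 6, so its size is not exact. The medians were -0.07 in Total, 0.06 in polysomes and 0.15 in polysome minus Total.

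Of 12 proteases listed as acting on decorin, 3 were kept: BMP1, which trims procollagens and the decorin precursor, the membrane-bound MMP14 and the gelatinase MMP9. MMP9 rose by 1.96 in Total of knockdown cells (adjusted p = 1.24e-05, 2 of 2 pairs), and none of the 3 passed in polysomes. Of 13 genes reported to respond to decorin protein, 10 were kept. In Total 2 rose and 2 fell, close to the 40.3% of all genes called there, with CDKN1A, the cyclin-dependent kinase inhibitor p21, at 1.08 (adjusted p = 1.27e-05) and TCHP, a keratin-binding protein, at -0.43 (adjusted p = 0.0168, not passed with the median of probe sets). CDKN1A also rose after 10 Gy in Total (0.76, adjusted p = 0.00785, 2 of 2 pairs), though not without the variance trend. It was the 1 member of any list here that passed for irradiation, where limma called 0.128% of genes in Total and 0.354% in polysomes. In polysomes HIF1A, the hypoxia-inducible factor, passed (0.70, adjusted p = 0.0324) but did not without the variance trend.

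The label of an epithelial line was checked against markers. Keratins KRT5 and KRT14 had log2 levels above 11 in all 12 arrays, and DSP, a desmosome protein, was kept as well. Of 10 basal markers 5 were measured, and the epithelial keratin KRT19 stayed between 3.52 and 4.80 in every array. In LMW of mock and irradiated WT cells DSG3 was at 3.24 and 4.75 and CDH1 at 4.58 and 5.27. Stromal markers were mostly dim: of 15 fibroblast markers 10 stayed below the filter level of 6 in every array, among them COL1A2, COL3A1, LUM and PDGFRA. The summed intensity of all 15 was 1123 to 1232 in Total of knockdown cells and 1730 to 1867 in Total of WT cells. On polysomes it was 876 to 1792 in the 4 knockdown arrays and 526 to 996 in the 4 WT arrays. The sum thus moved the same way as DCN in Total and, with overlapping ranges, on polysomes, and its part in the DCN pattern was not tested.

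FAP, a surface protease of activated fibroblasts, was the brightest of these markers. It fell by 0.75 in Total of knockdown cells (adjusted p = 0.000571, 2 of 2 pairs) and rose by 1.89 in polysomes (adjusted p = 0.00120, 4 of 4 pairs). Without FAP the sum was 536 to 546 in knockdown and 683 to 784 in WT Total, and 720 to 970 in knockdown and 455 to 730 in WT polysomes. Of all genes, 6.21% rose and 3.52% fell in polysomes, and 20.6% rose and 19.7% fell in Total. In polysomes 2 of the 5 kept fibroblast markers rose, and in Total 3 fell and 1 rose. Epithelial markers moved too: 4 of 5 kept ones rose in Total and 4 of 5 in polysomes, with CDH1, E-cadherin, at 1.20 and 3.79 (adjusted p = 2.48e-05 and 6.54e-15), and of 5 kept basal markers 3 rose and 2 fell in Total and 3 rose in polysomes. Endothelial markers were below the filter level in every array (4 of 4), and of 3 measured leukocyte markers CD14 alone was kept (-1.17 in Total, adjusted p = 0.000113). MALAT1, a nuclear RNA, was between 10.2 and 11.6 in Total and between 4.16 and 5.02 on polysomes, so unlike DCN it was dim on the polysomes of both genotypes. FTX was similar (3.05 to 3.62 on polysomes), but other RNAs of that list were not. TUG1 was between 6.21 and 7.97 on polysomes. MEG3 was between 5.09 and 5.44 in Total and between 5.25 and 6.43 on polysomes. Of 4 kept nuclear non-coding RNAs, 1 rose and 1 fell in Total and 0 passed in polysomes.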

How the data were processed

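RNA of 12 samples was hybridised to 3' expression arrays, 1 array for each genotype, treatment and preparation. The deposited values are intensities on a linear scale, summarised with RMA per the submitters' processing notes, and were turned to log2 here. It is not stated whether all arrays were normalised together, and RMA gives preparations of unlike RNA content alike distributions, so levels are relative within an array. Of 54675 probe sets, 41097 had 1 gene symbol, 1801 several and 11777 none in the platform annotation. The 41097 stood for 19775 genes, each represented by its probe set of highest mean, and 10157 genes with a log2 level of 6 or more in at least 4 arrays were kept.

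Tests used limma 3.58.1 in R 4.3.3 (lmFit and eBayes with a trend over the mean level of all 12 arrays) with genotype and treatment as terms, on Total, on the mean of LMW and HMW, and on their difference, adjusted by Benjamini-Hochberg over the kept genes. The fits were checked on simulated data with equal, independent noise on every array and the same knockdown effect in both treatments. That check cannot show how well the calls hold for these arrays. DCN and the genes most like it were given no test. DCN, the gene lists and the tests were chosen with earlier results of these data known. Named genes were the kept proteoglycans, up to 4 passing members per list and comparison (the 2 highest and the 2 lowest), and the 8 most and 4 least correlated genes, and FBN2 was named after its values were seen. Alternatives were no filter, a filter at log2 7, the median of a gene's probe sets, median centring, quantile normalisation, no trend, and LMW or HMW alone. The number of arrays limits the precision.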

Additional observations from a re-analysis of the deposited data

Results flagged for a closer look

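The knockdown moved polysomes and Total unlike for DCN in all 4 responding probe sets, with polysome minus Total higher in knockdown than in WT cells by 6.40 (201893_x_at), 5.44 (211896_s_at), 5.78 (211813_x_at) and 4.76 (209335_at) on the log2 scale, a difference that was not tested. For 211813_x_at and 209335_at many of the levels behind it lie under the filter level of 6. For 201893_x_at and 211896_s_at those in LMW of WT cells do. Its size is therefore not exact in any of them.

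The limma fit of polysome minus Total also passed for other genes of the lists. Among receptors the values were 2.68 for ITGA2, 1.81 for EGFR, 1.74 for MET and 1.73 for ITGB1, but with the median of probe sets EGFR (0.074) and MET (0.80) did not pass. Among growth factors and matrix proteins they were 3.05 for FN1, 2.65 for COL12A1, 1.80 for FBN1 and 1.38 for TGFB2, the last not passing with LMW alone (0.77). CSGALNACT1 had 1.06 and HIF1A 0.97. In every polysome array CSGALNACT1 lay below the filter level of 6, and so did FBN1 except in HMW of irradiated knockdown cells (6.20). TGFB2 lay below 6 in every WT polysome array (3.36 to 5.02) and in LMW of knockdown cells. Levels under 6 also enter the values of ITGA2 and COL12A1, and those given next for FAP, C1S, DSG3, CDH1 and CD14. The sizes for these genes, and for CSGALNACT1 and FBN1, are therefore not exact. Fibroblast markers passed with 2.64 for FAP, 1.54 for FBLN1 and 1.38 for C1S. Epithelial markers passed with 3.01 for DSG3, 2.59 for CDH1, 2.37 for DSP, 1.40 for ITGB4, 1.07 for LAMB3, 0.94 for KRT5 and 0.79 for KRT14. The leukocyte marker CD14 had 1.35. Without the variance trend CSGALNACT1, HIF1A, KRT14, KRT5 and LAMB3 did not pass. With HMW alone FBLN1 (1.11), KRT14 (0.095), KRT5 (0.35), ITGB4 (0.95) and CD14 (1.01) did not pass. CD14 did not pass with the filter at log2 7 or with quantile normalisation (1.22) either, and ITGB4 turned with the median of probe sets (-0.45).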

How the results depend on the processing

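No condition was replicated, so there were no replicates to pair. Arrays were matched only by treatment or condition, and the fit of polysome minus Total used differences within a condition. The mean DCN differences between knockdown and WT cells and between polysomes and Total kept their direction under quantile normalisation, median centring and the median of DCN probe sets. The mean of 10 Gy minus mock in knockdown cells, -0.01, was 0.033 with quantile normalisation. Single pairs, the separate pools and the other probe sets were not rerun. The median of all 7 DCN probe sets, which counts the 3 dim ones, gave 1.47 for polysome minus Total in knockdown and -2.83 in WT cells, -2.89 for knockdown minus WT in Total, 1.41 in polysomes and 4.30 for the difference of polysome minus Total; quantile normalisation gave 2.42 for polysome minus Total in knockdown cells. Genes called for the knockdown in polysomes numbered 1524 with LMW alone, against 989, and in polysome minus Total 814 with LMW alone and 324 with the median of probe sets, against 523. Genes called for 10 Gy in Total, 13 as reported, numbered 45 without a filter, 28 with the filter at log2 7, 6 with the median of probe sets, 148 with quantile normalisation and 0 in limma without a trend, where 1146 had an unadjusted p under 0.05. For 10 Gy in polysomes, 36 as reported, they numbered 100, 5, 2 and 6 under the same first 4 alternatives. The cause of these shifts was not tested. With the median of probe sets EGFR was at -0.075 in polysomes, COL1A1 at -0.20 in Total and ITGB4 at -0.45 in polysome minus Total, all of opposite sign. Of 806 values of 136 single-gene results, 729 kept direction and side of the threshold, 33 lost the call, 10 gained it and 34 changed sign, 3 of them, just named, of results that had passed. The others passed under neither setting. In polysomes, LMW alone gave -0.17 for NYX, 0.042 for PODNL1, -0.54 for CSGALNACT2, 0.19 for KRT14 and -0.20 for MEG3. HMW alone gave -0.27 for FBLN1, -0.39 for KRT5, -0.031 for KRT8 and -0.16 for CD14. Quantile normalisation gave -0.023 for NYX and -0.051 for MEG3, and the median of probe sets -0.043 for FBLN1. In polysome minus Total, LMW alone gave 0.48 for EIF4G1, -0.19 for NYX and -0.14 for MEG3. HMW alone gave 0.080 for TSKU, -0.055 for B3GAT3, -0.077 for CHST11, -0.074 for XYLT2, -0.11 for COL1A1, 0.037 for VEGFA, -0.46 for KRT8, -0.27 for KRT18 and 0.032 for TUG1. Quantile normalisation gave -0.050 for NYX, -0.038 for B3GAT3 and -0.060 for XYLT2, and the median of probe sets -0.050 for B3GAT3, -0.016 for CHST11, -0.053 for CHST12 and 0.45 for TUG1. Levels near or under the filter level of 6 limit what can be read for WT polysomes.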
